A study of Mus musculus with 36 samples.

Results

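Imprinted genes lying outside the Dlk1-Dio3 cluster were followed from mouse embryonic fibroblasts (MEFs) through reprogramming to induced pluripotent stem cells (iPSCs), and in embryonic stem cells (ESCs), with and without the zinc finger gene Zfp266. The genes were a fixed list of 44 symbols taken from what is known of mouse imprinting, and the rule uses no measured value, although the list was drawn up with earlier results of these data known. Of the 21442 genes in the deposited count table, 43 were on the list, and Rasgrf1 was not analysed here because it had no row. The list held 21 measured genes known to be expressed from the paternal copy and 14 from the maternal copy, in at least some tissues. A further 8 were set apart as having imprinting that depends on the isoform or tissue. These classes are labels from what is known and were not checked in the cells used here.

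Genomic imprinting leaves a gene active on the copy inherited from one parent and silent on the other. The difference rests on DNA methylation that is laid down in the germ line at control regions, kept through early development by proteins such as ZFP57 and its partner TRIM28, and read by neighbouring genes through insulators bound by CTCF or through long noncoding RNAs. Many imprinted genes act on growth of the embryo and placenta: Igf2 is a paternally expressed growth factor, Igf2r, Grb10, Cdkn1c and Phlda2 are maternally expressed genes that restrain growth, and H19 is a noncoding RNA made from the maternal copy beside Igf2. Cultured pluripotent cells are known to lose or gain imprints, which can silence a gene on both copies or activate it on both. The libraries count RNA from both copies together, so the values below are total levels and say nothing of which copy was read.

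The 36 RNA-seq libraries covered 6 stages, each with 3 wild type (WT) and 3 Zfp266 knockout (KO) libraries. WT MEFs and WT cells at day 3 (D3), day 5 (D5) and day 7 (D7) of reprogramming had received a non-targeting control sgRNA, and their KO counterparts a Zfp266 sgRNA, by lentivirus in Cas9-expressing cells. These KO libraries are therefore edited populations and not clones. MEFs were passage 2 cells of E12.5 embryos, made by the authors as chimaeras from a Cas9 ESC line carrying doxycycline-inducible Oct4, Sox2, Klf4 and c-Myc (OSKM) and a Nanog-GFP reporter, and they were harvested 96 hours after transduction. For reprogramming, a small share of these MEFs was mixed with 129 strain MEFs, OSKM was induced with 300 ng/ml doxycycline plus vitamin C 24 hours after transduction, and cells expressing the OSKM cassette were sorted at each day. The iPSC libraries came from separate clones grown without doxycycline and under puromycin from Nanog-GFP+ cells lifted at day 15. All of these cells carried the strain label 129. The WT ESC libraries were 3 samples of a single line, the parental Clone J, and the KO ESC libraries were clones made from it. The labels give no strain for the ESCs, but the authors state a 129 genetic background for this line. It is also the Cas9 ESC line from which the MEFs were made. Where libraries are samples of 1 line or population, p-values measure only the spread between those samples, which may be technical. The derivation, puromycin selection and culture history of iPSCs and ESCs cannot be told apart from cell type in any comparison between them.

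The libraries held 19224103 to 39610939 reads assigned to genes, so that 3 reads, the most that a count of 0 allows, corresponded to 2.31 to 5.22 normalised counts. Such limits and all intervals below cover counting error only. MEF KO replicate 3 stood apart: the SD of its log2 difference from the other 2 libraries of its group was 0.654, against 0.239 to 0.532 for the other 35 libraries. No imprinted gene was called in the MEF KO comparison with or without it. Zfp266 itself was at 1266 to 3096 normalised counts in WT and 1501 to 3293 in KO libraries over all stages. Within stages KO libraries lay below WT in iPSCs (1892 to 2212 against 2529 to 2817) and ESCs (1969 to 2222 against 2238 to 2445). At D3 KO libraries lay above WT (1824 to 2050 against 1417 to 1598), and at the other stages the ranges overlapped. These levels were not used to check the labels, because small guide-made insertions and deletions need not lower a gene's read count. Fibroblast markers (Col1a1, Col1a2, Thy1, Twist2, Prrx1 and Pdgfrb, summed) were at 300042 to 310973 normalised counts in WT MEFs and 73.0 to 196 in iPSCs and ESCs, where Twist2 and Prrx1 averaged below 1. Pluripotency markers (Nanog, Esrrb, Zfp42, Dppa5a, Tdgf1 and Utf1) ran from 19.7 to 30.8 in WT MEFs and from 93690 to 127635 in iPSCs and ESCs.

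A gene was called changed where its false discovery rate (FDR, the Benjamini-Hochberg adjusted p of DESeq2's Wald test over all genes) was below 0.05 and its log2 fold change exceeded 1 in either direction. The fit used all 36 libraries, and each log2 fold change is given with its standard error. Levels are normalised counts, that is reads divided by a size factor per library, and they compare libraries for a gene but not genes with each other. Divided by exon length, H19 led the imprinted genes in WT MEFs with 36073 normalised counts per kb, rank 31 of all genes, followed by Cd81 at 6898, Igf2r at 5926 and Igf2 at 5592. Per kb in WT ESCs the order was Impact at 3213, Cd81 at 1183, Phlda2 at 851 and Peg10 at 822, while Igf2 stood at 0.900 and Airn and Peg13 had no reads.

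**Figure D1:**
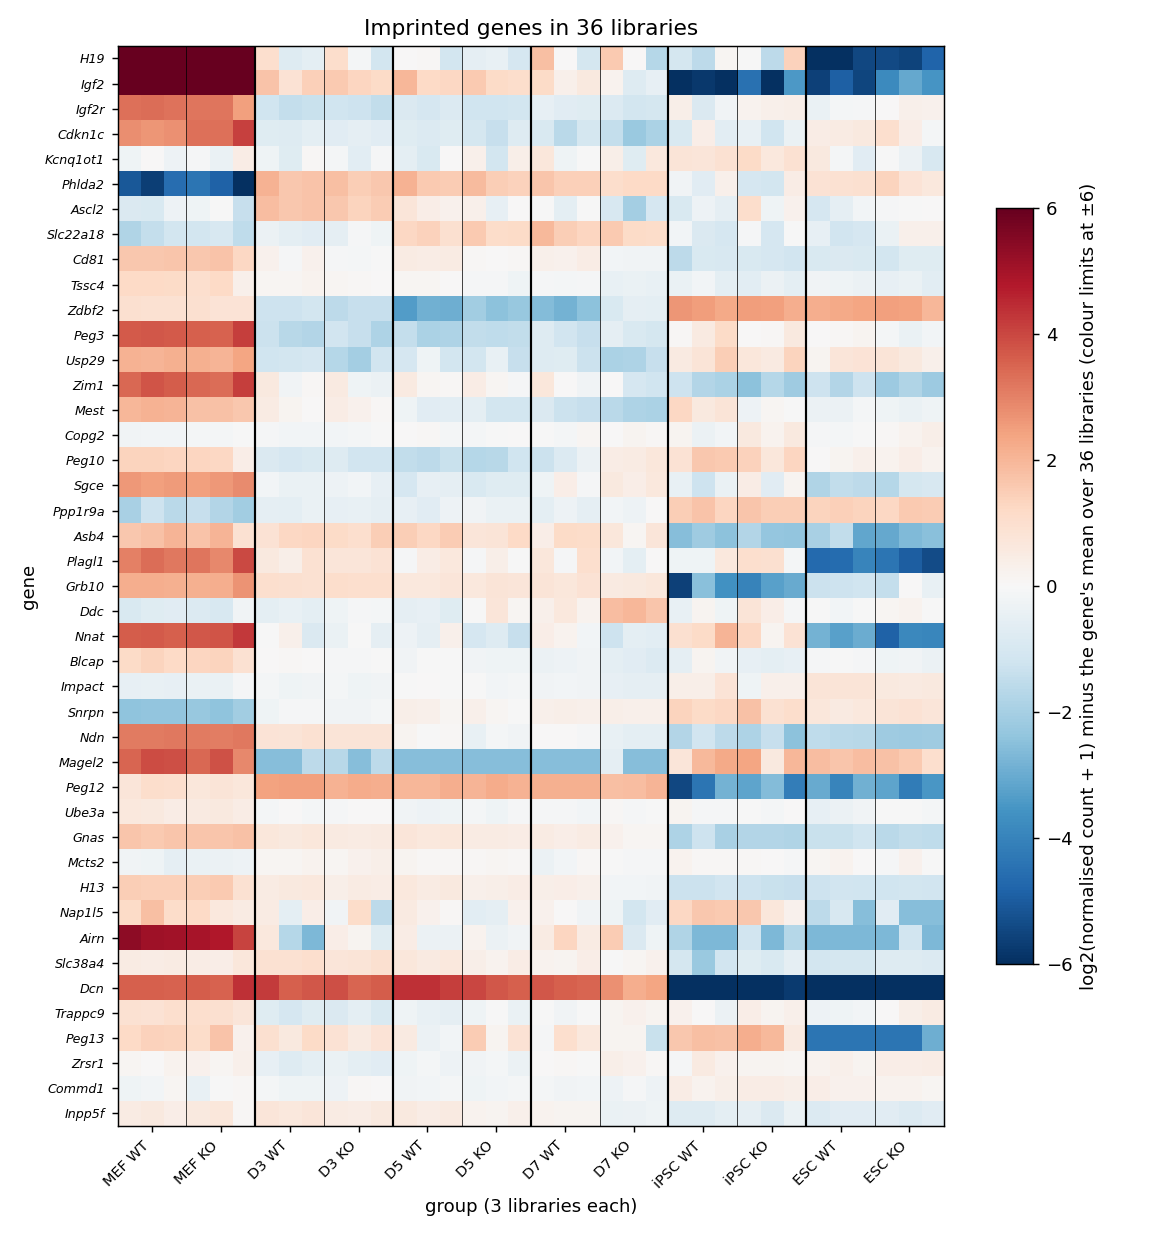
Log2(normalised count + 1) of each of the 43 imprinted genes (rows) in the 36 libraries (columns, 3 per group), minus the gene's mean over all libraries; red is above and blue below that mean, and colours end at 6 on either side. The MEF columns are red for H19, Igf2, Igf2r, Cdkn1c, Peg3 and Ndn, and the ESC columns are blue for Plagl1, Nnat and Peg13 where the iPSC columns are not.

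The first question was whether iPSCs carried imprinted genes at the level of ESCs. In WT cells, 6 of the 34 imprinted genes with an FDR were called between iPSCs and ESCs, 17.6%, against 0.275% of all genes with an FDR (35 of 12708, 0.15% higher and 0.126% lower in iPSCs). At FDR alone 10 of the 34 passed, against 3.2% of all genes. Without WT iPSC replicate 3, 9 imprinted genes were called among 288 genes (1.67%), and without WT ESC replicate 1, 5 among 8 genes. In the fit of all libraries Plagl1, H19, Mest and Peg10 were higher in iPSCs, and Grb10 and Phlda2 were lower. In KO cells 9 of 41 were called, 22%, against 1.46% of all genes (246 of 16863, 1.35% higher and 0.113% lower): Plagl1, H19, Nnat, Peg13, Sgce and Kcnq1ot1 were higher in iPSCs and Grb10, Phlda2 and Cdkn1c were lower. The groups of 3 libraries did not overlap for any of these calls. Plagl1, H19, Grb10 and Phlda2 were called in both genotypes. The genotypes share no library, but the KO ESC clones come from the WT ESC line, so they are not independent lines.

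Plagl1 encodes a zinc finger transcription factor expressed from the paternal copy. It lies at chr10:13060504-13131694 on the plus strand (GRCm38.p6). Its normalised counts in WT iPSC clones 1, 2 and 3 were 124, 127 and 234, and in the WT ESC libraries 5.02, 5.06 and 8.69. In KO cells they were 306, 292 and 138 in iPSCs and 6.28, 3.89 and 2.69 in ESCs. All 6 iPSC clones lay above all 6 ESC libraries, and the ESC values were near what 3 reads are worth. The log2 fold change was 4.67 ± 0.45 (FDR = 1.20e-21) in WT and 5.84 ± 0.49 (FDR = 2.25e-28) in KO cells, and it was called under each of the 12 alternatives run in both genotypes.

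H19 (chr7:142575529-142578143, minus strand) was at 439.6, 304 and 981 normalised counts in WT iPSC clones and at 11.05, 10.1 and 19.98 in WT ESCs. In KO iPSC clones it was at 905, 307 and 2412, and in KO ESCs at 20.6, 18.5 and 31.4. The clones differed widely from each other but all lay above the ESC libraries, with a log2 fold change of 5.38 ± 0.75 (FDR = 3.88e-09) in WT and 5.68 ± 0.73 (FDR = 3.12e-11) in KO cells. Its neighbour Igf2 was not called between iPSCs and ESCs in either genotype, with values of 1.73, 3.44 and 2.78 in WT iPSCs and 4.02, 7.09 and 4.34 in WT ESCs. In KO cells Igf2 was at 9.98, 1.74 and 21.2 in iPSCs and 16.2, 28.2 and 19.7 in ESCs (FDR = 0.128), and it was called lower in iPSCs without KO iPSC replicate 3.

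In the WT comparison 9 imprinted genes had no FDR under independent filtering, the step by which DESeq2 sets low genes aside. Of these, Nnat, Peg13 and Nap1l5 were picked out after their values were seen, because their groups did not overlap, so their direction is a description. For the other 6 the iPSC and ESC values overlapped, with log2 fold changes of -0.36 for Asb4, -0.03 for Ascl2, -0.01 for Magel2, 0.23 for Slc22a18 and 0.37 for Usp29, while Airn had 1 read over all 6 libraries. Nnat, a small membrane protein gene read from within an intron of Blcap, had 55.3, 62.0 and 116 normalised counts in WT iPSC clones against 3.01, 2.02 and 2.61 in WT ESCs. In KO cells Nnat was at 67.9, 31.2 and 50.5 in iPSCs and at 0, 0.973 and 0.897 in ESCs. Peg13, a noncoding RNA made from within Trappc9, was at 63.9, 74.1 and 70.5 in WT iPSCs and had 0 reads in all 3 WT ESC libraries, which makes it at least 72.6-fold higher in iPSCs against a floor of 3 reads over the group. In KO cells Peg13 was at 94.8, 81.6 and 29.3 in iPSCs, with 2 reads in all in ESCs. Nap1l5, a retrogene expressed from the paternal copy, was at 12.95, 17.2 and 16.7 in WT iPSCs and at 1.00, 2.02 and 0 in WT ESCs.

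The ESC side of these genes rested on few reads. The ratio of the pooled WT iPSC to WT ESC counts was 30.1 for Nnat (95% interval 15.3 to 69.7, 8 ESC reads) and 16.3 for Nap1l5 (5.58 to 79.1, 3 ESC reads). In KO cells it was 79.7 for Nnat (22.1 to 659, 2 ESC reads), 113 for Peg13 (31.3 to 932, 2 ESC reads) and 11.4 for Nap1l5 (3.90 to 55.2, 3 ESC reads). With independent filtering switched off, 9 imprinted genes were called in WT cells among 38 genes in all (0.177% of 21436), and Nnat (FDR = 2.91e-13), Peg13 (FDR = 1.99e-08) and Nap1l5 (FDR = 0.00685) were among them. The edgeR quasi-likelihood test called 17 genes in the WT comparison (0.0793%), of which 8 were imprinted genes of the list: Grb10, H19, Mest, Nap1l5, Nnat, Peg10, Peg13 and Plagl1.

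To show the sequence at the start of genes that differed between iPSCs and ESCs, RefSeq promoter windows (GRCm38.p6, 250 bases before to 50 after a start) of Plagl1, Nnat, Nap1l5, Mest and Grb10 were searched for TGCCGC, the core that ZFP57 is known to bind when methylated, and its reverse complement GCGGCA. Matches are in capitals, and sequences run 5′ to 3′ on the gene's strand. Plagl1 is chr10:13090582-13090881 (+), Nnat chr2:157559828-157560127 (+), Nap1l5 chr6:58907077-58907376 (-), Mest chr6:30737800-30738099 (+) and Grb10 chr11:12037371-12037670 (-).
Plagl1: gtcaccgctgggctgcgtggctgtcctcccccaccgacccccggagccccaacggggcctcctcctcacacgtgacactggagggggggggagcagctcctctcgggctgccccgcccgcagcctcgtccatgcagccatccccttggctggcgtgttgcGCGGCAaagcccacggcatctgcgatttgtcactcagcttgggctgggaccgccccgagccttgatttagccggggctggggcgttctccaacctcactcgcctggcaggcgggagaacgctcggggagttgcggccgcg
Nnat: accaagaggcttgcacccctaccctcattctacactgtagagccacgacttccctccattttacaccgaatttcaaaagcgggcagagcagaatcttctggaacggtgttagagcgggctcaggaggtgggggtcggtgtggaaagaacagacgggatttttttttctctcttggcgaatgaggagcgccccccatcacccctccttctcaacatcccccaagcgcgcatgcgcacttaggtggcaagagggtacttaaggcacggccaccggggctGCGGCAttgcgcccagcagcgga
Nap1l5: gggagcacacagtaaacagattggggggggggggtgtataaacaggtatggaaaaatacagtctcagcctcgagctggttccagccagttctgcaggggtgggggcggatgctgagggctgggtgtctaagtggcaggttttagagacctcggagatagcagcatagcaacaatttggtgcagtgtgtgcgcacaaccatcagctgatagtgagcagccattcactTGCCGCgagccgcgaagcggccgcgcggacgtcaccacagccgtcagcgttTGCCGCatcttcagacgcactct
Mest: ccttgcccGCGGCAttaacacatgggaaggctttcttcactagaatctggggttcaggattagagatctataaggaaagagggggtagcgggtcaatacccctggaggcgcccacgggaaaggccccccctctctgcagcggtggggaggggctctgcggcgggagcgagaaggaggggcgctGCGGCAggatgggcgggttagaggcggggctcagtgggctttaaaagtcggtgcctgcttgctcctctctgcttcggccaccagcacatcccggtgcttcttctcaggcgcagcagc
Grb10: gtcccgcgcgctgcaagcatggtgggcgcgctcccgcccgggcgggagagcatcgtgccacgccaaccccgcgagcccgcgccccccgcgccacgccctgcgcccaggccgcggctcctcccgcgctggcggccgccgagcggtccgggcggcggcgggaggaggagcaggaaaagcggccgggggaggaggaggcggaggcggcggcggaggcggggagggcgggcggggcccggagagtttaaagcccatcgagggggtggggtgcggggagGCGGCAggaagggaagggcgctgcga

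These 5 windows hold 1, 1, 2, 2 and 1 matches. They were chosen for printing after the values and the matches were known. A further window of Grb10 (chr11:12027922-12028221) and one of Mest (chr6:30733256-30733555) held 0 matches and are not printed, nor are the windows of Phlda2 and Kcnq1ot1, which also held 0. Of 54 windows belonging to the 35 listed genes with a window, 13 (24.1%) held the hexamer on either strand, against 3813 of 32851 windows of all genes (11.6%). The 13 include the printed Mest window and a nearly identical one (chr6:30737803-30738102) with the same 2 matches, so this site is counted more than once. The hexamer occurred in a window of 12 of the 35 genes. The 5-base core CCCTC of the CTCF motif (reverse complement GAGGG), which is common, occurred in 42 of the 54 windows (77.8%) and in 66% of all windows. H19, Peg10 and Peg13 had no window. A match describes letters and was not taken as a bound site, and the files hold no methylation or binding values.

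Mest, which encodes a paternally expressed membrane-bound hydrolase, differed between iPSCs and ESCs in WT cells. Its counts were 6930.3, 4281 and 4948 in WT iPSC clones and 2253, 2251 and 2659.6 in WT ESCs, a log2 fold change of 1.17 ± 0.17 (FDR = 2.50e-08), which was 0.95 and so under the fold threshold without WT iPSC replicate 1. In KO iPSC clones they were 2308, 3131 and 2801, which reached down into the KO ESC range of 2154 to 2447 and gave 0.24 ± 0.17 (FDR = 0.473). The KO effect differed between iPSCs and ESCs for 2 imprinted genes of 41, 4.88%, against 1.47% of all genes, and for Mest the difference was -0.93 (FDR = 0.0155). This difference was lost with edgeR (FDR = 0.0778) and without replicate 1 of WT iPSCs (FDR = 0.0693), KO iPSCs (FDR = 0.0883), WT ESCs (FDR = 0.0599) or KO ESCs (FDR = 0.0546) or replicate 2 of WT ESCs (FDR = 0.0655). Mest overlaps Copg2 tail to tail on the opposite strand, and the strand setting of the read counting is not given in the sources used here.

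Peg10, a gene derived from a retrotransposon and needed in the placenta, and its divergent neighbour Sgce, which encodes a sarcoglycan, both lie in a paternally expressed domain on chromosome 6. Peg10 was at 8809, 15056 and 14574 normalised counts in WT iPSC clones and at 5006, 5404 and 6029.6 in WT ESCs (log2 fold change 1.23 ± 0.22, FDR = 3.44e-05). In KO cells it was at 12663, 7856 and 12117 against 5718, 6361 and 5605, and its log2 fold change of 0.88 (FDR = 0.00298) stayed under the fold threshold. Sgce, chosen here with values known, showed 0.99 ± 0.25 (FDR = 0.00700) in WT and 1.26 ± 0.23 (FDR = 1.89e-05) in KO cells. The WT difference of Sgce had an FDR of 0.0646 with edgeR, 0.216 on the compared libraries alone and 0.121 without WT iPSC replicate 1, and the KO difference of Peg10 one of 0.0683 without KO iPSC replicate 1. With all libraries, both genes were higher in iPSCs in each genotype at FDR below 0.05, while only 1 of them passed the fold threshold in each.

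Of the maternally expressed genes that restrain growth, Grb10 and Phlda2 were lower in iPSCs in both genotypes and Cdkn1c in KO cells, while Igf2r was not called in either. Grb10, an adaptor of insulin and growth factor receptors, was at 103, 899.9 and 411 in WT iPSC clones and 2046, 2126 and 2224 in WT ESCs (log2 fold change -2.18 ± 0.36, FDR = 5.17e-06). In KO cells Grb10 was at 310.5, 523 and 629 in iPSCs and 1868, 5213 and 3709 in ESCs (-2.88 ± 0.36, FDR = 7.73e-12). All 6 iPSC clones lay below all 6 ESC libraries. Fitted on the 6 compared WT libraries alone, the WT difference in Grb10 kept its direction but had an FDR of 0.444.

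Phlda2, a placental growth inhibitor, was at 444, 317 and 631 in WT iPSCs and 915, 956 and 993 in WT ESCs (-1.04 ± 0.30, FDR = 0.0276). In KO cells Phlda2 was at 255, 239 and 681 in iPSCs and 1294, 905 and 773 in ESCs (-1.34 ± 0.30, FDR = 0.000884). Its WT call was lost with edgeR (FDR = 0.0909) and without WT iPSC replicate 1 (FDR = 0.161) or 2 (FDR = 0.0982) or WT ESC replicate 1 (FDR = 0.120), 2 (FDR = 0.124) or 3 (FDR = 0.0530). On the compared libraries alone the KO difference of Phlda2 had an FDR of 0.203. Cdkn1c, a cyclin-dependent kinase inhibitor of the same domain, showed -0.78 ± 0.28 (FDR = 0.0852) in WT and -1.16 ± 0.28 (FDR = 0.00235) in KO cells. Kcnq1ot1, the paternally expressed noncoding RNA that silences this domain in cis, showed 0.79 ± 0.36 (FDR = 0.196) in WT and 1.31 ± 0.36 (FDR = 0.00979) in KO cells. The WT Cdkn1c difference passed both thresholds without WT iPSC replicate 2 (-1.27, FDR = 0.000901). The KO Cdkn1c call was lost without ESC KO replicate 1 (FDR = 0.0905) and, on the fold threshold, without iPSC KO replicate 2 (-0.94), and the KO Kcnq1ot1 call without iPSC KO replicate 1 (FDR = 0.106) or ESC KO replicate 3 (FDR = 0.0870).

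By inheritance, 3 of 15 paternally expressed genes with an FDR were called higher in WT iPSCs than WT ESCs and none lower, and 1 of 11 maternally expressed genes was called higher and 2 lower. Of all genes with an FDR in WT cells, 0.15% were called higher and 0.126% lower. In KO cells the counts were 5 of 19 higher and none lower for paternally expressed genes, and 1 of 14 higher and 3 lower for maternally expressed genes. All genes with an FDR in KO cells also leaned to higher in iPSCs, with 1.35% called higher and 0.113% lower. The median log2 difference over the paternally expressed genes with an FDR was 0.21 in WT cells (15 genes) and 0.43 in KO cells (19 genes), against 0.01 and 0.02 over all genes with an FDR. Over the maternally expressed genes with an FDR it was -0.09 in WT cells (11 genes) and 0.04 in KO cells (14 genes). Over all 21 paternally expressed genes, Nnat, Peg13 and Nap1l5 included, the WT median was 0.56, or 0.37 with genes at 0 reads in a group set to their bound. None of the 8 genes with isoform- or tissue-dependent imprinting was called in either genotype by DESeq2, with 2 in WT and 3 in KO cells at an unadjusted p below 0.05, and edgeR called none of them.

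**Figure D2:**
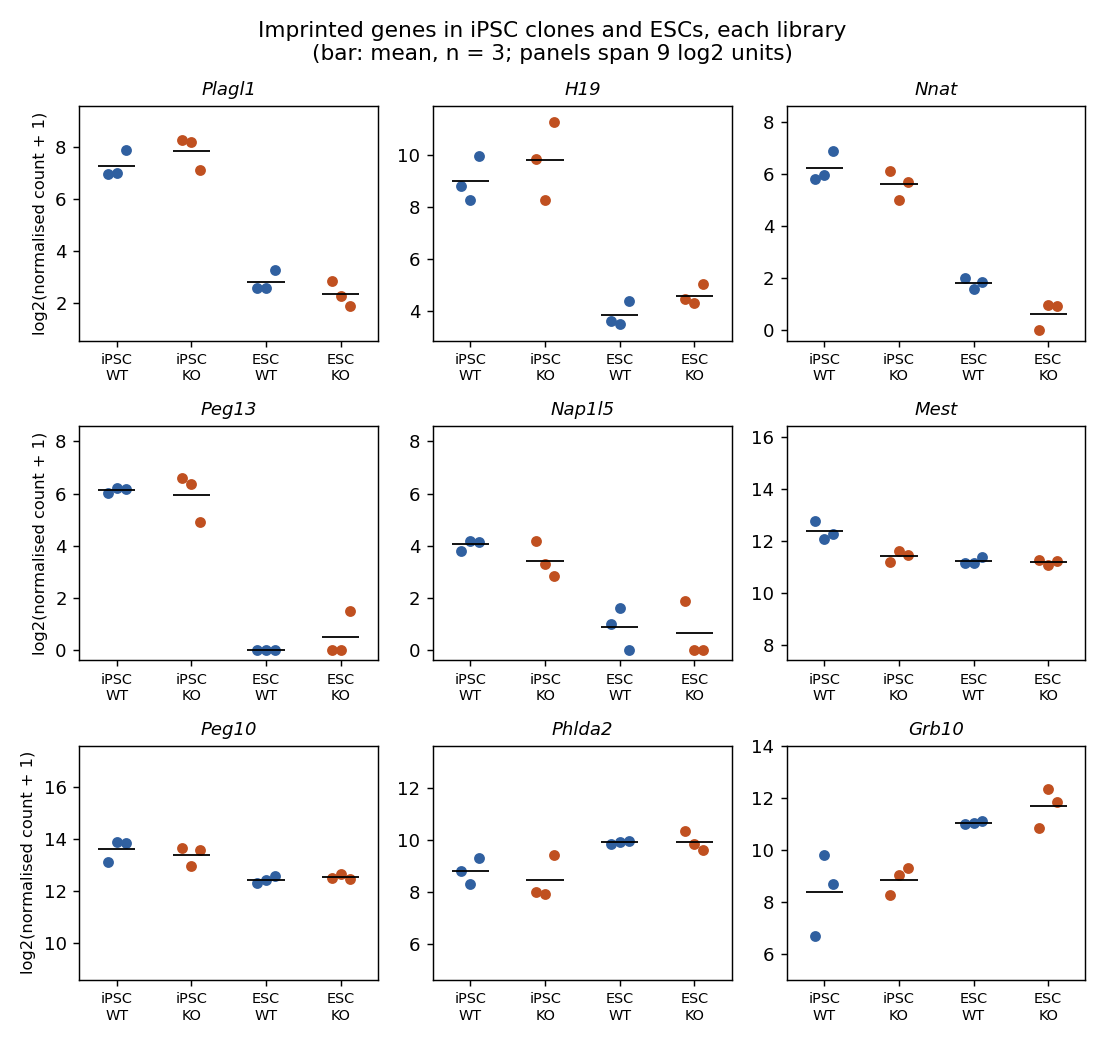
Log2(normalised count + 1), vertical axis, of 9 imprinted genes in the 3 libraries of each of 4 groups, horizontal axis: WT (blue) and KO (orange) iPSC clones and ESCs; points are libraries, bars are means of the 3, and panels span 9 log2 units but not the same range. In the Plagl1, H19, Nnat, Peg13, Nap1l5 and Peg10 panels every iPSC point lies above every ESC point of its genotype, and in the Phlda2 and Grb10 panels every one lies below.

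The next comparison was among clones of a group. Each iPSC library is a clone, whereas the WT ESC libraries are samples of 1 line. The median over the 43 imprinted genes of the SD of log2(normalised count + 1) was 0.343 in WT iPSCs and 0.370 in KO iPSCs, against 0.0871 in WT ESCs and 0.213 in KO ESC clones. Over all 21442 genes the medians were 0.244, 0.237, 0.130 and 0.150, so the spread of imprinted genes was larger than that of all genes in the iPSC groups and KO ESCs and smaller in WT ESCs. In MEFs it was 0.0760 in WT and 0.288 in KO libraries, and the WT value was 0.0395 without WT replicate 2. Without KO replicate 3 the KO value was 0.0603, below the 0.0694 of all genes, where with it all genes had 0.230. Leaving out 1 library moved several of these medians by more than 1.5 times: imprinted genes were at 0.218 (all genes 0.172) without WT iPSC replicate 1, at 0.209 (0.186) without KO iPSC replicate 2, at 0.109 (0.0918) without KO ESC replicate 1 and at 0.131 (0.118) without KO ESC replicate 3. A larger spread than that of all genes was not particular to clones. Among the sorted reprogramming populations, imprinted genes in KO cells were at 0.148 (all genes 0.133) at D3, 0.174 (0.124) at D5 and 0.153 (0.137) at D7. In WT cells they were at 0.107 (0.136) at D3, 0.136 (0.142) at D5 and 0.145 (0.142) at D7.

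Genes with a mean of at least 50 normalised counts and the widest range among clones were named. Grb10 had a highest to lowest ratio of 8.76 among WT iPSC clones, H19 3.23 and Cdkn1c 2.42. Among KO iPSC clones H19 had 7.85, Peg13 3.24 and Phlda2 2.85. The largest ratios among WT ESC samples were 2.44 for Kcnq1ot1, 1.61 for Usp29 and 1.27 for Sgce. Among KO ESC clones they were 2.79 for Grb10, 2.23 for Cdkn1c and 1.94 for Kcnq1ot1. No WT iPSC clone was highest for all of these genes: WT clone 2 was highest for Grb10 and Cdkn1c and lowest for H19, while WT clone 3 was highest for H19, Plagl1, Nnat and Phlda2. Ratios of 3 values are descriptions and were not tested.

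**Figure D3:**
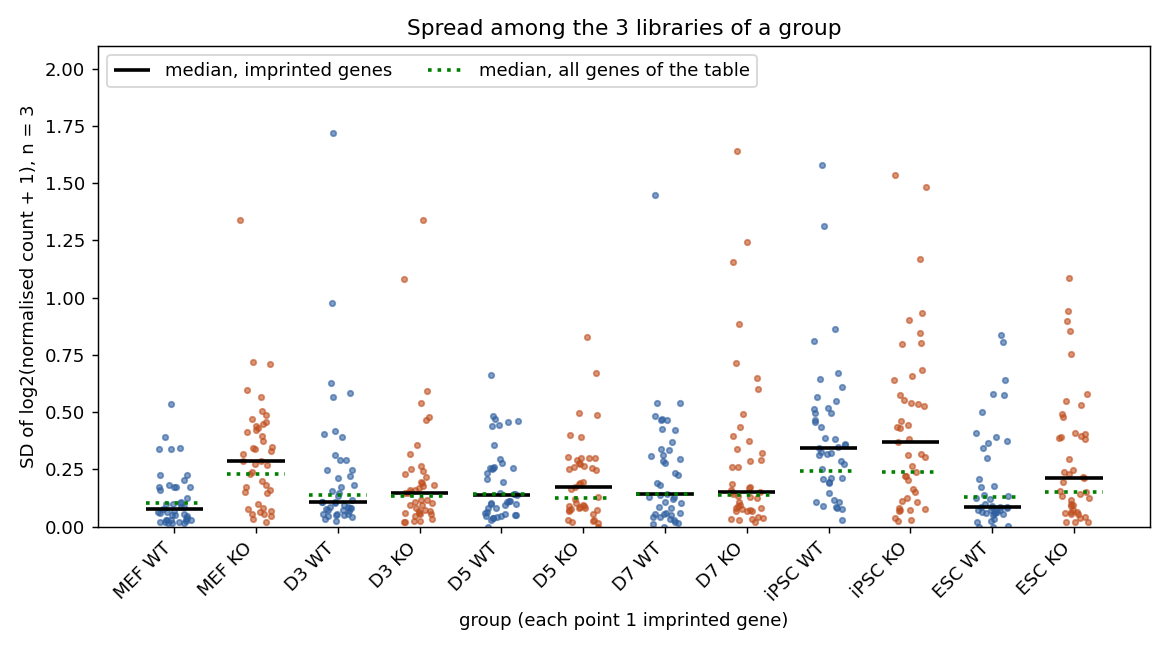
Standard deviation of log2(normalised count + 1) among the 3 libraries of each group (vertical axis), one point per imprinted gene, for the 12 groups (horizontal axis, WT blue and KO orange); the black line is the median over the 43 imprinted genes and the dotted green line the median over all 21442 genes. The black line lies above the green in both iPSC groups and in the other KO groups, and below it in WT ESCs.

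Loss of Zfp266 was then compared at each stage. In MEFs no imprinted gene was called (0.019% of all genes were), and edgeR called none either, with 4 of the 43 at an unadjusted p below 0.05. Cdkn1c had the largest of these, with 2929, 2681 and 2851 normalised counts in WT and 4264, 4238 and 7223 in KO libraries, a log2 fold change of 0.89 ± 0.27 but an FDR of 0.292. Without KO replicate 3, the library that stood apart, it was 0.59 ± 0.28 with an FDR of 1. At D3 none was called (0.162% of all genes), 1 had an unadjusted p below 0.05, and edgeR called none. At D5 none passed both thresholds (1.19% of all genes did) with DESeq2 or edgeR, and 11 had an unadjusted p below 0.05. The share of all genes at that unadjusted cut was not computed, for this or any other list. Such counts are therefore descriptions and not a result about imprinted genes. At FDR alone, where 7.15% of all genes passed at D5 (4.72% higher and 2.43% lower), Zdbf2 (0.80, FDR = 2.23e-05) and Ddc (0.87, FDR = 0.00126) were higher and Cd81 (-0.41, FDR = 0.0265) lower.

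At D7, 6 imprinted genes of 43 were called between KO and WT cells, 14%, against 8.37% of all genes (3.95% higher and 4.42% lower). Zdbf2, Ddc and Peg10 rose and Dcn, Ascl2 and Igf2 fell, and for none of them did KO values reach into the WT range. At FDR alone 20 of the 43 passed, 4 higher and 16 lower, where 29.4% of all genes passed (13.3% higher and 16.1% lower). The median log2 fold change over the imprinted genes was -0.33, against -0.04 over all genes.

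Cell type markers also differed between the D7 groups. Summed pluripotency markers were at 5022 to 8861 normalised counts in WT and at 23545 to 31174 in KO libraries. Summed fibroblast markers were at 17568 to 24666 in WT and at 5504 to 15209 in KO libraries. Neural markers (Sox1, Pax6 and Tubb3) were at 8088 to 9493 in WT and 2851 to 3863 in KO, and trophoblast markers (Eomes, Elf5, Gata3 and Hand1) at 129 to 167 in WT and 299 to 399.6 in KO libraries. The neural marker Neurog2 and the trophoblast marker Cdx2 were also listed but had no row. The part of these marker differences in the D7 results was not tested. In bulk RNA a smaller share of cells of a type and less RNA per cell cannot be told apart.

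Zdbf2, a paternally expressed zinc finger gene on chromosome 1 (chr1:63273265-63314576, plus strand), fell from MEFs to D5 in both genotypes and was higher in KO than in WT cells at D5 and D7. It was at 1857, 1843 and 1813 normalised counts in WT MEFs, 411, 413 and 456 at D3, 94.2, 130.05 and 127 at D5 and 157, 136 and 175 at D7. In KO cells it was at 326, 370.0 and 372 at D3, 229.9, 176 and 202 at D5 and 520.1, 659 and 642 at D7. The D7 difference was 1.96 ± 0.14 on the log2 scale (FDR = 7.90e-40), and KO and WT values in iPSCs (4415 to 6069) and ESCs (3889 to 5313) overlapped. The KO effect differed between D7 and D3 for 4 imprinted genes of 42, 9.52%, against 13% of all genes, by the interaction term at FDR below 0.05, and for Zdbf2 it was 2.22 higher at D7 (FDR = 7.88e-26).

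Peg10 was at 2021, 2761 and 3853 in WT and 6542, 6881 and 7838 in KO libraries at D7, a log2 fold change of 1.30 ± 0.22 (FDR = 6.46e-08). At D5 it had been at 1769.8, 1665 and 1934 in WT and 1492, 1561 and 2120.2 in KO libraries. Ddc, the enzyme that makes dopamine and serotonin, shares an imprinted region with Grb10 and was at 326, 405 and 298 in WT and 949, 1043 and 828 in KO libraries at D7 (1.45 ± 0.20, FDR = 1.91e-11). Grb10 was not called at D7. The KO effect was larger at D7 than at D3 for Peg10 by 1.39 (FDR = 0.000317) and for Ddc by 1.05 (FDR = 0.00528).

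Dcn, the matrix proteoglycan decorin and a gene of fibroblasts, was at 3623, 3218 and 3031 in WT and 1836, 1246 and 1391 in KO libraries at D7 (-1.14 ± 0.20, FDR = 1.16e-07), and its KO effect fell by 0.94 more at D7 than at D3 (FDR = 0.00967). Ascl2, a transcription factor of the placental lineage, was at 64.9, 44.3 and 64.8 in WT and 34.1, 15.8 and 32.7 in KO libraries (-1.08 ± 0.34, FDR = 0.00697), and without D7 KO replicate 2 its FDR was 0.0950. Without D7 WT replicate 1 or D7 WT replicate 3, Ascl2 was not called either, with log2 fold changes of -0.993 and -0.996. Igf2 was at 530.5, 295 and 362 in WT and 277, 143 and 172 in KO libraries (-1.01 ± 0.28, FDR = 0.00239). Igf2 sat at the fold threshold: it was not called with edgeR, with TMM factors or on the 6 compared libraries alone, and without D7 WT replicate 1 its FDR was 0.0557. Without D7 KO replicate 2 (-0.82) or D7 KO replicate 3 (-0.92), Igf2 was also under the fold threshold.

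Genes that passed FDR alone at D7 were smaller changes. Among those lower were Mest (-0.63), Cd81 (-0.54), Ndn (-0.53), H13 and Inpp5f (both -0.52), Blcap (-0.41), Tssc4 (-0.35), Impact (-0.33), Gnas (-0.30) and Peg12 (-0.24). With the replicate number as a block, Nnat was also called at D7. Lower with larger values were Nnat (-0.99), Zim1 (-0.87) and Plagl1 (-0.82). Ppp1r9a (0.34) was the only gene higher at FDR alone beside the 3 called.

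**Figure D4:**
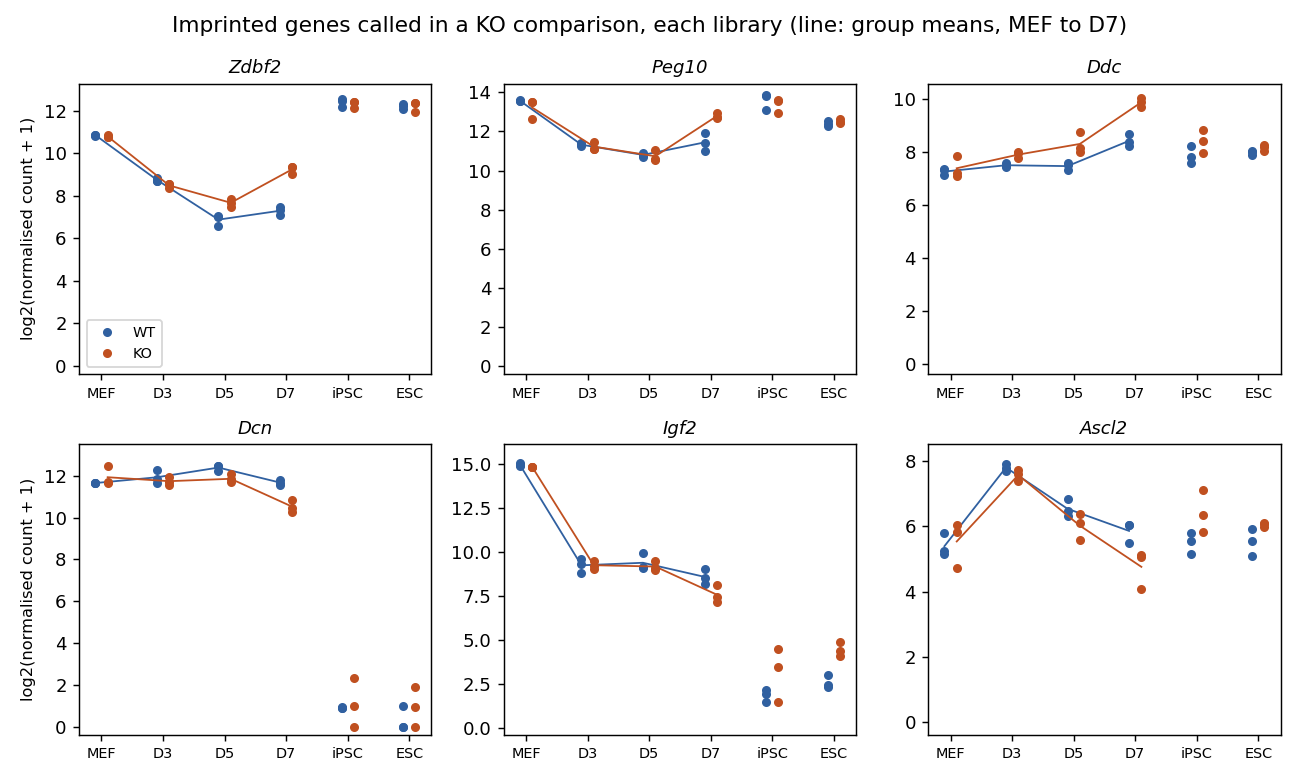
Log2(normalised count + 1), vertical axis, of the 6 imprinted genes called in a KO comparison, in each library by stage (horizontal axis), WT blue and KO orange; lines join group means from MEF to D7. The KO points of Zdbf2, Peg10 and Ddc lie above the WT points at D7, and those of Dcn, Igf2 and Ascl2 lie below.

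In iPSCs, 2 imprinted genes of 43 were called between KO and WT clones, 4.65%, against 4.51% of all genes (3.95% higher), and in ESCs 1 of 41, 2.44%, against 1.21% (0.741% higher). With the replicate number as a block, Igf2 was called in iPSCs and Ascl2 was not (0.97). Igf2 was higher in KO ESC clones, at 16.2, 28.2 and 19.7 against 4.02, 7.09 and 4.34 in WT samples (2.06 ± 0.48, FDR = 0.00101). In KO iPSC clones Igf2 was at 9.98, 1.74 and 21.2 against 1.73, 3.44 and 2.78, where KO clone 2 fell within the WT range (2.01 ± 0.61, FDR = 0.00967). The WT iPSC and WT ESC values of Igf2 were near what 3 reads are worth in those libraries, 2.58 to 3.04 normalised counts. Both Igf2 differences therefore rest on few WT reads. Ascl2 was at 139, 55.6 and 80.8 in KO and 34.5, 54.3 and 46.4 in WT iPSC clones (1.02 ± 0.31, FDR = 0.0116).

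These calls rested on few libraries. The iPSC call of Igf2 was lost with edgeR (FDR = 0.178), on the compared libraries alone (FDR = 0.383), without WT clone 1 (FDR = 0.0513) and without KO clone 3 (FDR = 0.317). That of Ascl2 was lost on the compared libraries alone (FDR = 0.179), without WT clone 1 (FDR = 0.0631) and without KO clone 1 (FDR = 0.256). The ESC call of Igf2 was lost with edgeR (FDR = 0.0928). KO iPSC clone 1 also carried the highest primitive endoderm markers (Gata4, Gata6, Sox17 and Sox7, summed) at 607 normalised counts, where the other iPSC clones had 61.2 to 129. Trophoblast markers were at 187, 92.0 and 125 in KO clones 1, 2 and 3, the order of their Ascl2 values. In WT clones 1, 2 and 3 they were at 109, 76.6 and 60.3, which was not the order of Ascl2, lowest in WT clone 1. Elf5 averaged below 1 in both iPSC groups. In WT MEFs the trophoblast sum was 235 to 277 and the primitive endoderm sum 1805 to 1852, both above every iPSC clone. Neither sum is therefore particular to the cell type it is named for. Neural markers were at 592, 1718 and 853 in KO and at 1573 to 1995 in WT iPSC clones. In ESCs neural markers were at 1499, 823 and 930.4 in KO and 1531 to 1637 in WT libraries, and fibroblast markers at 88.8 to 128 in KO and 73.0 to 86.4 in WT libraries. The part of these markers in the iPSC and ESC results was not tested.

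At FDR alone, 10 of 43 imprinted genes passed in iPSCs (16.3% of all genes) and 6 of 41 in ESCs (10.1%). Of those under the fold threshold in iPSCs, chosen after their values were seen, Mest was lower in KO clones (-0.97 ± 0.17, FDR = 1.17e-06) and its tail-to-tail neighbour Copg2 was higher (0.58 ± 0.10, FDR = 2.04e-06). Copg2 was at 2297, 1755 and 2288 in KO and 1695, 1202 and 1354 in WT iPSC clones, and on these 6 libraries alone its FDR was 0.0605. In ESCs, Ndn was lower (-0.56) and Ube3a (0.31), Trappc9 (0.56), Slc22a18 (0.97) and Copg2 (0.30) were higher in KO clones. The KO effect on Ube3a, a ubiquitin ligase, differed between iPSCs and ESCs by -0.37 (FDR = 0.0275). It was lost with edgeR (FDR = 0.0842), on the compared libraries alone (FDR = 0.343), and without any one of 7 of the 12 libraries: WT iPSC replicate 1, KO iPSC replicate 1 or 2, WT ESC replicate 1 or 2, and KO ESC replicate 1 or 2, with FDR from 0.0512 to 0.131.

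**Figure D5:**
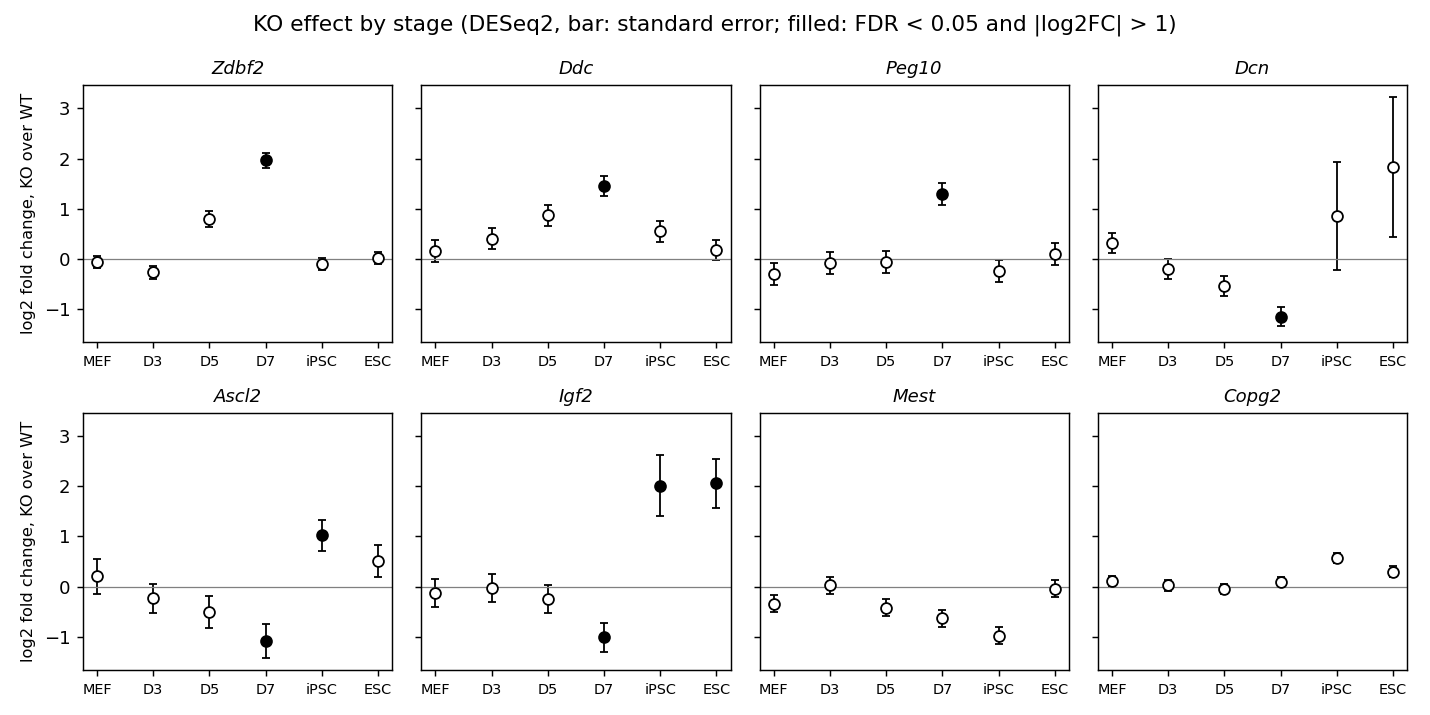
DESeq2 log2 fold change of KO over WT (vertical axis, bars are standard errors) by stage (horizontal axis) for the 6 imprinted genes called in a KO comparison and for Mest and Copg2; filled points passed both thresholds. Zdbf2 and Ddc rise above 0 at D5 and are filled at D7, and Igf2 is below 0 at D7 and above it in iPSCs and ESCs.

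Between WT MEFs and WT D3 cells most imprinted genes differed. From WT MEFs to WT D3 cells 28 of 43 were called, 65.1%, 5 higher and 23 lower, against 44.9% of all genes (19.5% higher and 25.4% lower). Igf2r fell from 54688, 57236 and 53560 normalised counts in MEFs to 2446, 2114 and 2256 at D3 (-4.60 ± 0.19, FDR = 4.20e-133). Peg3, a zinc finger gene expressed from the paternal copy, fell from 28465, 29362 and 28371 to 900.4, 692 and 651 (-5.26 ± 0.22, FDR = 2.22e-126). Igf2 fell from 33839, 32104 and 30069 to 782, 441 and 644 (-5.68 ± 0.28, FDR = 6.87e-93). Phlda2 rose from 13.9, 9.09 and 20.2 to 2157, 1554 and 1668 (6.92 ± 0.39, FDR = 6.76e-68), and Ndn, a gene of the Snrpn domain, fell by 2.30 on the log2 scale (FDR = 3.47e-84). The other genes that rose were Snrpn (2.25), Ascl2 (2.40), Peg12 (1.52) and Ppp1r9a (1.06). Summed fibroblast markers were at 20878 to 26611 normalised counts in WT D3 cells, against 300042 to 310973 in WT MEFs, and neural markers at 9472 to 11603 against 765 to 797, and the part of these differences was not tested. The D3 cells were also mixed with 129 MEFs, grown in ESC-based medium with vitamin C in place of MEF medium, and sorted. These steps cannot be told apart from the 3 days of OSKM.

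H19 fell from 88593, 92137 and 85489 in WT MEFs to 1845, 539 and 610 at D3. Replicate 1 was the highest H19 library in WT and KO cells at D3 (1845 and 1896) and at D7 (3225 and 2714), where the other replicates were at 424 to 838 and 279 to 927. Same-numbered libraries of the genotypes therefore moved together for this gene.

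From D3 to D7 in WT cells 4 genes of 43 were called, 9.3%, against 14.8% of all genes (10.8% higher and 3.97% lower). At FDR alone 16 passed, against 42.9% of all genes. Zdbf2 (-1.45 ± 0.14, FDR = 2.70e-22), Mest (-1.41 ± 0.17, FDR = 5.56e-15) and Ascl2 (-1.95 ± 0.31, FDR = 1.99e-09) fell and Slc22a18, a membrane transporter, rose (2.15 ± 0.27, FDR = 1.86e-14). From D7 to WT iPSCs 24 were called, 55.8%, 10 higher and 14 lower, against 45% of all genes (20% higher and 25% lower). Zdbf2 rose by 5.12 ± 0.14 (FDR = 7.46e-295) and Ppp1r9a by 1.99 ± 0.14 (FDR = 3.37e-47), while Peg12 fell by 6.10 (FDR = 7.46e-163), Gnas fell by 2.102 (FDR = 3.66e-93) and H13 by 1.59 (FDR = 6.83e-52). In this step 9 of the 21 paternally expressed genes rose and 5 fell, with a median of 0.72, and 1 of the 14 maternally expressed genes rose and 7 fell, with a median of -1.43.

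Between WT MEFs and WT ESCs 34 genes were called, 79.1%, 5 higher and 29 lower in ESCs, against 55.4% of all genes (26% higher and 29.4% lower). Ndn (-4.75, FDR = 3.86e-283), Gnas (-2.92, FDR = 2.52e-180), Igf2 (-12.61, FDR = 4.95e-169), H13 (-2.64, FDR = 1.83e-142) and Peg12 (-4.20, FDR = 1.02e-102) had the lowest FDR. Airn, the noncoding RNA antisense to Igf2r, had 271, 224 and 214 normalised counts in WT MEFs and 0 reads in WT ESCs, at least 243-fold lower against 3 reads over the group. Ppp1r9a (2.94), Snrpn (2.99), Phlda2 (6.01), Impact (1.23) and Zdbf2 (1.35) were higher in ESCs.

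Of 18 genes that set or keep imprints, a list chosen with earlier results of these data known, none was called by DESeq2 in KO MEFs, D3 cells or ESCs, with 2, 4 and 4 at an unadjusted p below 0.05, and edgeR called none there either. At D5 Tet1, a demethylating enzyme (1.57), and Zfp42, a zinc finger gene of pluripotent cells (1.33), were called higher in KO cells, 2 of 18 or 11.1%, against 1.19% of all genes called. At D7, 6 of the 18 were called, 33.3%, against 8.37% of all genes (3.95% higher), and all were higher: Dnmt3l (4.04), a cofactor of de novo methylation, Dppa3 (2.81), a maternal protector of methylation, Tet1 (2.31), the methyltransferase Dnmt3b (1.86), Zfp42 (1.71) and Zfp57 (1.23). Zfp57 was at 1307, 1817 and 1315 in WT and 3256, 3739 and 3435 in KO D7 libraries. At FDR alone 13 of the 18 were higher and none lower, where 13.3% of all genes were higher and 16.1% lower. Zfp42 is also one of the pluripotency markers whose D7 values are given above. In KO iPSC clones only Dppa3 (2.23) was called, 5.56% of the 18, against 4.51% of all genes.

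Of 16 measured imprinted neighbours outside the list of 44 genes, 15 had an FDR at D7 and 4 of these were called, 26.7%, against 8.37% of all genes: Kcnq1 (-3.39), Htr2a (-1.38) and Osbpl5 (-1.10) lower and Tspan32 (1.25) higher in KO cells. DESeq2 called none in MEFs, at D3 or D5, or in iPSCs or ESCs, with 1, 1, 4, 3 and 4 at an unadjusted p below 0.05, and edgeR called 1 at D5 and none at the others. Kcnq1 had no FDR for the KO effect at D7 against D3, where independent filtering sets low genes aside. It also shares exons with Kcnq1ot1 on the other strand, so its reads may be shared.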

How the data were processed

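RNA was measured in 36 libraries of 12 groups (6 stages, WT and KO, 3 libraries each), grouped by their labels. The authors trimmed single-end reads with cutadapt and used STAR for mapping to GRCm38 (GRCm38.p6 in the submitters' processing notes) and Rsubread for read assignment, and they deposited raw counts per gene. They also deposited normalised counts, a signal equal to the counts divided by 1 size factor per library, checked here to hold to rounding, and the per-library values below use that signal. Tool versions and the strand setting of the counting are not given in the sources used here. Tables of the authors' own fold changes, p-values and FDR, and a table of batch-corrected log values, were not used, apart from the gene names that 1 of the former pairs with its identifiers.

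DESeq2 1.42.0 (R 4.3.3) tested differences in the deposited counts (Wald test, 1 factor of 12 groups, all 36 libraries, median-ratio size factors, no shrinkage, default independent filtering), after the design the authors state. The dates of library preparation that the authors corrected for in their log values are not in the labels and were no term in the fit, so their part in the results was not tested. The FDR is Benjamini-Hochberg over all genes that independent filtering kept. On simulated counts with an assumed dispersion, the fit recovered most of the large changes seeded in well-expressed genes. That run does not bear on calls with few reads or near the fold threshold. Spread is the SD of log2(normalised count + 1). Alternatives were edgeR 4.0.16, TMM factors, a filter of at least 10 reads in at least 3 libraries, no independent filtering, the compared libraries alone, the replicate number as a block, FDR alone, and each library left out. RefSeq promoter windows and GENCODE vM21 annotation (43 of 43 genes found) gave positions. 18 of the 43 genes share exons with a gene on the other strand and 6 with one on the same strand, so their reads may be split or shared.

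Genes named in full were those called in a KO comparison, the 5 with the lowest FDR per stage comparison among called genes whose groups did not overlap, the 3 with the widest ratio per pluripotent group among genes with a mean of at least 50, and the imprint control genes called in a KO comparison. Others were named after their values were seen. The genes and lists were chosen with earlier results of these data known. Same-numbered WT and KO libraries deviated together at D3 (lowest correlation 0.101) and D7 (0.172), over 14637 genes and against a threshold of 0.1. They did not at every number in MEFs (lowest -0.0248), iPSCs (-0.142) or ESCs (-0.0275). At D5 number 2 was just under the threshold (0.0897), beside 0.268 and 0.221. There every library correlated best with its own number, so D5 was close to paired.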

Additional observations from a re-analysis of the deposited data

Results flagged for a closer look

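The KO effect differed between stages by the DESeq2 interaction term for 6 imprinted genes. From D3 to D7 the log2 KO effect rose by 2.22 for Zdbf2 (FDR = 7.88e-26), by 1.39 for Peg10 (FDR = 0.000317) and by 1.05 for Ddc (FDR = 0.00528), and it fell by 0.94 for Dcn (FDR = 0.00967). Between ESCs and iPSCs it was lower in iPSCs, by -0.93 for Mest (FDR = 0.0155) and by -0.37 for Ube3a (FDR = 0.0275). The Mest term had an FDR of 0.0778 with edgeR and that of Ube3a 0.0842, and both were lost without some single libraries, among them WT iPSC replicate 1 (FDR = 0.0693 for Mest and 0.0927 for Ube3a). Groups of 3 libraries are too small for the test of single samples, which was not run.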

How the results depend on the processing

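The alternatives were run for the imprinted genes named by rule and for some others, not for the imprint control genes, the neighbours or most genes given at FDR alone, and none of the differences they were run for reversed. Those for single genes outside the KO comparisons, and the spread of all genes with a library left out, were chosen after seeing the data. With FDR alone the counts of called genes rose to 3 at D5, 20 at D7, 10 in iPSCs and 6 in ESCs between KO and WT, to 16 from D3 to D7 and to 10 between WT iPSCs and WT ESCs. The brackets that follow give the share of all genes with an FDR that was called in the same setting. In iPSCs between KO and WT, edgeR called 1 (4.6%), the compared libraries alone 0 (1.81%) and the replicate block 1 (4.4%). In ESCs edgeR (0.816%) and the compared libraries alone (1.42%) called 0 and Igf2 had no FDR in the latter. For the KO effect at D7 against D3 the compared libraries alone called 11 (22.4%, against 13% in the fit of all libraries). For iPSCs against ESCs edgeR called 0 (0.294%) and the compared libraries alone 1 (0.281%). At D7, where the numbers pair the libraries, the replicate block called 7 (8.12%) and added Nnat, and at D3, where they also pair, it called 0 (0.144%). At D5, where they nearly pair, it also called 0 (1.21%). For the KO effect at D7 against D3 it called 6 (13.2%), adding Igf2 and Mest. With each library left out in turn, the KO counts ran from 0 to 1 at D5 (0.681% to 1.26%) and 4 to 7 at D7 (6.79% to 8.3%). They ran from 0 to 4 in iPSCs (2.53% to 5.18%) and 1 to 2 in ESCs (0.64% to 1.44%). Between iPSCs and ESCs the counts ran from 5 to 9 in WT (0.0816% to 1.67%) and 8 to 10 in KO cells (0.493% to 2.97%). For the KO effect they ran from 4 to 7 for D7 against D3 (8.84% to 13%) and 0 to 3 for iPSCs against ESCs (0.765% to 3.59%). The median spread ran from 0.0395 to 0.0666 in WT MEFs, 0.0603 to 0.360 in KO MEFs, 0.218 to 0.350 in WT iPSCs, 0.209 to 0.287 in KO iPSCs, 0.0705 to 0.0957 in WT ESCs and 0.109 to 0.169 in KO ESCs. A pseudocount of 10 gave 0.283 in KO iPSCs and 0.148 in KO ESCs, and a mean of at least 10 gave 0.145 in KO ESCs. The cause of these changes was not tested. Depth limited the ESC values of Peg13, Nnat and Nap1l5, which rest on 0 to 8 reads over the 3 libraries of a group. It also limited the Igf2 values of WT iPSCs and WT ESCs, which were near what 3 reads are worth.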
